A study of Drosophila melanogaster with 16 samples.

Results

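The arm∆N embryos were naïve Drosophila melanogaster embryos that expressed Armadillo (Arm), the fly β-catenin, without the N-terminal stretch through which the protein is marked for destruction. They were set against WT embryos, which are non-expressing naïve embryos and not wild type animals. All embryos came from mothers mutant for bcd, nos and tsl (bcdE1, nosL7, tsl146), so that anterior, posterior and terminal patterning was missing in every group. Mothers of the embryos with a UAS transgene also carried da-Gal4, a driver active in nearly all cells, so that each transgene was expressed throughout the embryo. The paper does not state whether the mothers of the WT embryos carried the driver. Total RNA of about 50 embryos, aged about 4 to 16 h, was pooled for each Affymetrix Drosophila 2 array, with 2 biological replicates per genotype. The comparison took 4 of the 16 arrays of the series, 2 of arm∆N and 2 of WT, and covered all 9027 genes that were represented by a probeset of that gene alone and lay above 2.5 on the log2 scale in at least 2 arrays. A further 2 genotypes were used to show where arm∆N differed from related conditions. These were arm∆N-tcf∆N-short, in which arm∆N was expressed together with a shortened form of the transcription factor TCF, and Wg++, in which the ligand Wingless (Wg) was overexpressed. The shortened TCF lacks the regions that bind Arm and the repressor Groucho, and also the C-clamp, a region that adds target specificity.

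Canonical Wnt signalling works by stabilising Arm. In the absence of ligand a destruction complex that holds Axin, APC and GSK3 phosphorylates Arm and has it degraded, and TCF, named Pangolin (pan) in the fly, keeps target genes repressed together with Groucho. Once Arm accumulates it binds TCF and target genes are transcribed. In the fly embryo the pathway is best known for segment polarity, where Wg signalling gives naked cuticle between belts of denticles, and it also patterns the midgut, heart and nervous system.

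The labels were checked on the transgenes that the arrays could show. The level of wg was 6.61 and 6.50 (log2 intensity) in arm∆N, 10.15 and 10.04 in Wg++, and 6.43 and 6.40 in WT embryos. The level of pan, the gene for TCF, was 5.78 and 5.25 in arm∆N, 10.88 and 10.41 in arm∆N-tcf∆N-short, and 4.60 and 5.36 in WT embryos. Both transgenes were thus high only in the genotypes named for them among these 4. The arm gene itself was not analysed here. The 2 arm∆N arrays correlated with each other at r = 0.9727 across genes and the 2 WT arrays at r = 0.9595, while the correlation of an arm∆N array with a WT array lay between 0.9028 and 0.9313. Genes are not independent replicates, and these values only describe the arrays. The highest correlation of WT replicate 2 was with DisArmed replicate 2 (r = 0.9817), an array with which WT replicate 1 correlated at r = 0.9555. For WT replicate 1 the highest correlation was that with WT replicate 2. The median absolute difference between replicates was 0.296 in arm∆N and 0.331 in WT on the log2 scale.

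A gene was called higher or lower when its fold change exceeded 1.5 and its false discovery rate was under 10% (limma across all 16 arrays, Benjamini-Hochberg adjustment over 9027 genes). All standard errors (SE) and adjusted p-values below come from that fit, which pools the spread of all genotypes. Where some genotypes lie near the lowest intensity of the arrays, as for Mco4 and obst-G, such an SE can understate the spread of the arm∆N arrays. In arm∆N 726 genes rose and 1062 fell relative to WT, that is 19.8% of the genes tested, 8.04% higher and 11.8% lower. The median difference of all genes was −0.079 on the log2 scale. Of the 1788 called genes, 1786 had arm∆N arrays that did not overlap the WT arrays, as had 4944 of all genes tested (54.8%). The 15 genes with the largest rise rose by 4.50 to 6.25 in log2, and the 15 with the largest fall fell by 3.48 to 6.53. A mean under 3 in arm∆N or WT is described as near the lowest value, since no array holds a value under 2.289, and the difference of such a gene is a lower bound. The split between rises and falls depended on the scaling. After cyclic loess, which moved the median difference to −0.00176, there were 824 rises and 681 falls, so that rises made up 54.8% of the calls against 40.6% as deposited. Without WT replicate 1 the count of calls was 926 (377 higher, 549 lower), without arm∆N replicate 1 it was 1172 (410 and 762) and without arm∆N replicate 2 it was 1036 (435 and 601). A fit of the 4 arrays alone left 2 residual degrees of freedom and called 336 genes (223 higher, 113 lower).

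**Figure D1:**
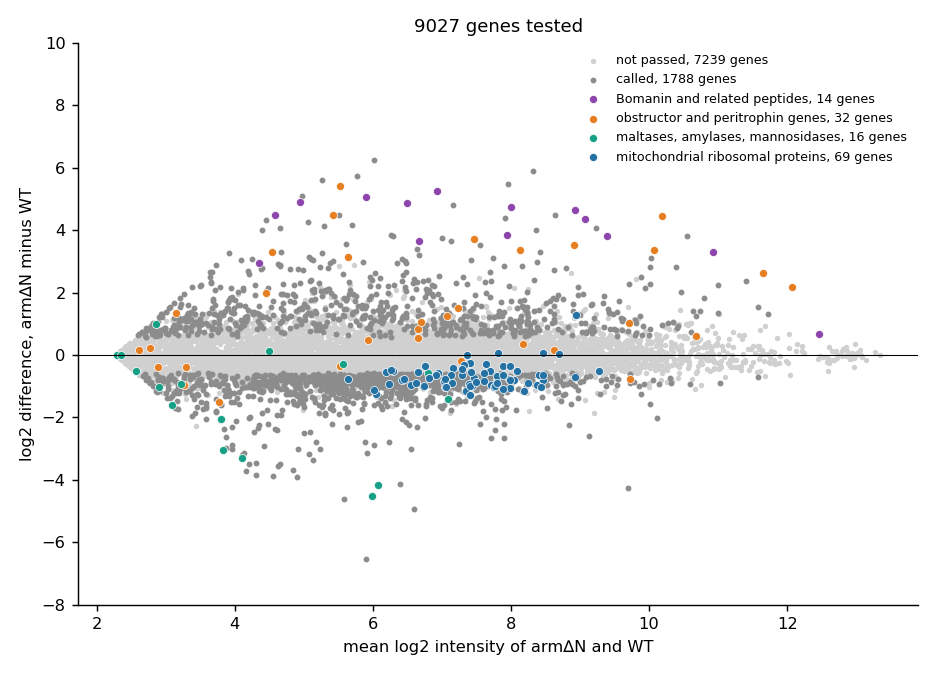
Difference between arm∆N and WT (y axis, log2) against the mean level of the 2 genotypes (x axis, log2 intensity) for the 9027 genes tested, 1 point per gene, dark grey where called and light grey where not, with the members of 4 gene lists coloured. All 14 Bomanin points lie above 0, and 64 of the 69 mitochondrial ribosomal points lie below it.

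Few genes of the Wnt pathway itself passed between arm∆N and WT, and among those with the lowest adjusted p were feedback genes. Notum, which encodes a secreted enzyme that inactivates Wnt ligands, stood at 6.72 and 6.60 in arm∆N and at 3.46 and 3.78 in WT (log2 intensity), a rise of 3.04 ± 0.24 (SE, adjusted p = 6.16e-05). The level of fz3, a Frizzled-family receptor gene induced by Wg in imaginal discs, was 7.57 and 7.77 in arm∆N against 5.85 and 6.11 in WT (difference 1.69, adjusted p = 0.00669). The ligand gene Wnt6 had 4.64 and 4.68 in arm∆N against 3.23 and 3.08 in WT (difference 1.51, adjusted p = 0.00684). In all 3 genes the arm∆N arrays lay above both WT arrays and the call held without each array. The receptor tyrosine kinase gene drl, a Wnt5 receptor in the nervous system, went the other way, with 7.75 and 7.80 in arm∆N against 8.87 and 9.38 in WT (adjusted p = 0.00255), and this call ended in the fit of 4 arrays. Other known targets did not pass. The difference of nkd, a feedback inhibitor, was 0.58 (adjusted p = 0.231) and that of wg was 0.14 (adjusted p = 0.795). By list, 2 of 11 Wg target and feedback genes rose (median difference 0.23), and 2 of 23 canonical pathway components rose and 1 fell (median 0.03). These 3 component calls were wls, the carrier that brings Wnt ligands to the cell surface (difference 1.39, adjusted p = 0.0506), wdb (1.5, adjusted p = 0.0969) and Coop (−0.68, adjusted p = 0.0795). The component list had no call without arm∆N replicate 1, none without WT replicate 1 and none in the fit of 4 arrays, and 1 rise and 6 falls without arm∆N replicate 2.

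The gene for w, the White transporter that serves as eye-colour marker in many transgenes, was read as a check on the insertions. Its level was 6.27 and 6.94 in arm∆N, 7.97 and 8.12 in arm∆N-tcf∆N-short, 4.44 and 4.93 in Wg++, and 5.03 and 4.75 in WT embryos. Both arm∆N arrays lay above both WT arrays and below both arm∆N-tcf∆N-short arrays. The gene w was chosen after its values were seen.

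Genes of the peritrophin and obstructor families encode chitin-binding proteins that line the gut and form part of the cuticle. Of 32 such genes tested 13 rose in arm∆N and 1 fell (CG17145, −1.49), with a median difference of 1.03. Of all genes tested 8.04% rose. However, 9 of the 32 genes, among them obst-G, obst-J, CG10140 and CG10725, are also on the list of the study's chromatin immunoprecipitation. The study chose genes for that assay by their levels in these samples. The count of 13 is thus not independent evidence of a direction. obst-G had levels of 7.83 and 8.63 in arm∆N against 3.15 and 2.49 in WT (difference 5.41 ± 0.28, SE, adjusted p = 5.04e-06), with WT near the lowest value. CG10140 had 7.46 and 7.87 in arm∆N against 2.97 and 3.41 in WT (difference 4.48, adjusted p = 8.91e-06). CG10725 had 12.21 and 12.64 in arm∆N against 7.74 and 8.19 in WT (difference 4.46, adjusted p = 0.00139). obst-H had 9.21 and 9.44 in arm∆N against 5.28 and 5.92 in WT (difference 3.73, adjusted p = 6.16e-05) and obst-J had 10.42 and 10.90 in arm∆N against 7.34 and 6.96 in WT (difference 3.51, adjusted p = 0.000749). For each of these 5 genes the lower arm∆N array was more than 3 log2 units above the higher WT array. Without each array in turn the list had 13 rises, the fall of CG17145 was called only in the case without WT replicate 2, and the fit of 4 arrays gave 11 rises. Of 16 mucin genes 2 rose and 2 fell, with Muc96D higher by 2.5 (WT near the lowest value) and Mur29B by 1.94, while Mur18B fell by 3.19. Of 31 chitin synthesis and assembly genes 3 rose and 3 fell, and the chitinase gene Cht10 fell by 1.72. The second list had 1 rise and 1 fall without arm∆N replicate 1, and 2 rises and 1 fall without WT replicate 1.

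A list of 27 genes, compiled here for the study's chromatin immunoprecipitation, held 23 genes that rose in arm∆N and none that fell. The median difference of the list was 3.15 against −0.079 for all genes. The paper itself gives 23 as the number of genes it selected at random from a cluster of these expression data. Those 23 are not the 23 rises, and which of the 27 lie outside the paper's selection was not established. The paper's selection was made on these samples, so that the count of the list is not independent evidence of a direction. Of the 27 genes 9 are also in the chitin-binding list. The 4 members that did not pass were btd (difference −0.25), wg (0.14), CG7567 (1.16) and Peritrophin-15a (1.51). The count was 22 without each array in turn and 21 in the fit of 4 arrays. Its largest member was Mco4, a multicopper oxidase gene of the family that oxidises metals and diphenols, with 8.10 and 9.17 in arm∆N against 2.86 and 2.95 in WT (difference 5.73 ± 0.27, SE, adjusted p = 3.51e-06), WT lying near the lowest value. Mco1, a second oxidase gene of that family, had 7.96 and 8.72 in arm∆N against 4.98 and 4.92 in WT (difference 3.39, adjusted p = 0.000153). MtnB, a metallothionein gene that binds copper and cadmium, had 4.96 and 6.26 in arm∆N against 2.64 and 2.5 in WT (difference 3.04, adjusted p = 0.00235), again from near the lowest value. Of 11 metallothionein and copper genes tested these 3 and the copper importer gene Ctr1A were called, all higher. The call of Ctr1A (difference 1.26, adjusted p = 0.0695) ended without arm∆N replicate 1, without WT replicate 1 and in the fit of 4 arrays.

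**Figure D2:**
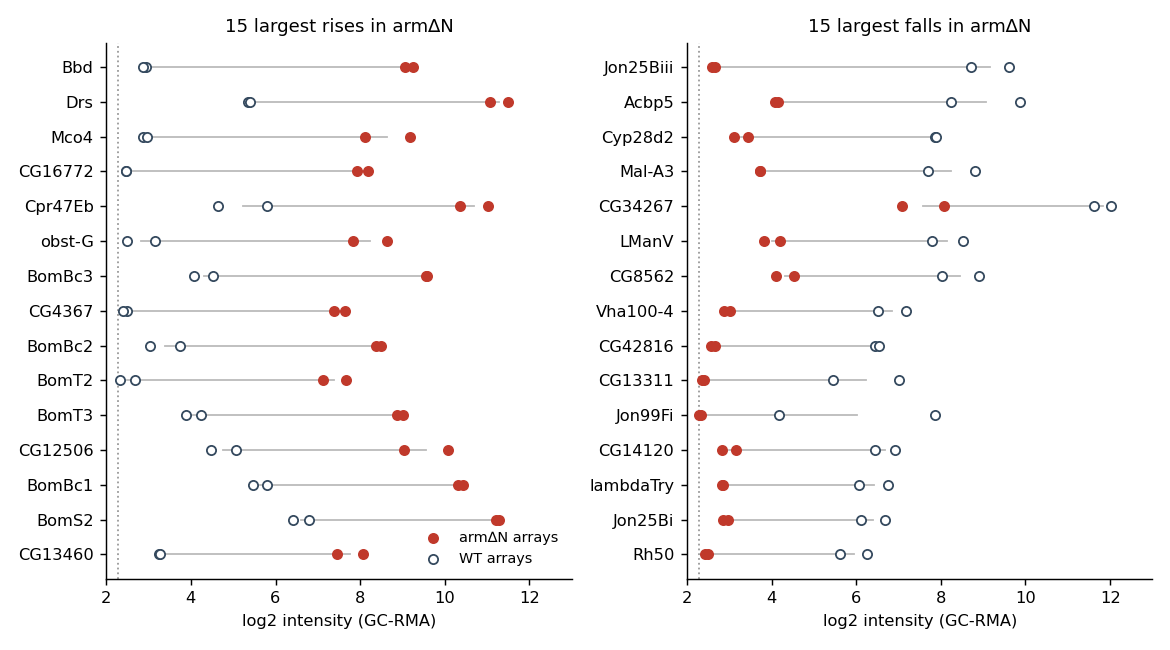
Level (x axis, log2 intensity) of the 15 genes with the largest rise and the 15 with the largest fall in arm∆N, 1 row per gene and 1 point per array, the grey line joining the genotype means and the dotted line marking the lowest value of the arrays (2.289). In every row the 2 arm∆N points lie apart from the 2 WT points, and several WT points of the rising genes and arm∆N points of the falling genes lie near the dotted line.

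Effector genes of the Toll pathway, the branch of fly immunity that answers fungi and Gram-positive bacteria, were much higher in arm∆N than in WT. Of 14 Bomanin genes and related induced peptides 13 rose, by 2.96 to 5.26 in log2 (median of the list 4.41), and this count was the same without each array, after loess and in the fit of 4 arrays. BomBc3 had levels of 9.55 and 9.59 in arm∆N against 4.52 and 4.08 in WT (difference 5.26 ± 0.81, SE, adjusted p = 0.00296). Drs, the gene of the antifungal peptide Drosomycin, had 11.06 and 11.48 in arm∆N against 5.34 and 5.40 in WT (difference 5.90 ± 1.0, SE, adjusted p = 0.00484). It was the 1 antimicrobial peptide gene of 5 tested that was called. Bbd, the gene of Bombardier, a secreted protein needed for the action of the short Bomanins, had 9.24 and 9.05 in arm∆N against 2.93 and 2.86 in WT (difference 6.25, adjusted p = 0.00129), with WT near the lowest value. SPE, the protease that cuts the Toll ligand Spätzle into its active form, had 8.38 and 8.01 in arm∆N against 3.97 and 4.71 in WT (difference 3.85, adjusted p = 0.000414). In these 4 genes the lower arm∆N array lay more than 3 log2 units above the higher WT array.

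Of the 47 Toll, Imd and recognition genes tested, 11 rose and 3 fell (median 0.38). GNBP-like3, of the family of glucan-binding recognition proteins, had 6.52 and 6.69 in arm∆N against 2.29 and 2.30 in WT, with WT at or near the lowest value (adjusted p = 0.00181). GNBP3, the sensor of fungal glucan upstream of Toll, rose by 1.71 and the thioester protein gene Tep2 by 1.25. The serpin gene nec, which holds back Toll activation, rose as well, with 8.80 and 8.78 in arm∆N against 6.44 and 6.45 in WT (difference 2.35, adjusted p = 0.00645). Among 18 serpins 6 rose and 2 fell (median 0.34), and the fall of Spn43Aa (−2.85) ended in the fit of 4 arrays. Counts of the recognition list were 6 higher and 1 lower without arm∆N replicate 1, 7 and 0 without arm∆N replicate 2, 8 and 2 without WT replicate 1, and 6 and 2 without WT replicate 2. None of 4 Turandot stress genes and none of 14 heat shock protein genes tested was called by limma, and 0 and 1 of them had an unadjusted p under 0.05. Without WT replicate 2, 2 Turandot genes were lower, and without WT replicate 1, 1 heat shock gene was lower.

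Genes of the JNK stress pathway, which drives dorsal closure and wound repair, and of related responses were higher in part. Of 20 JNK pathway genes 5 rose and 1 fell (peb, −1.47), with a median of 0.61. Gadd45, a stress-induced activator of JNK signalling, had 5.45 and 5.39 in arm∆N against 3.0 and 3.34 in WT (difference 2.25 ± 0.19, SE, adjusted p = 0.000113). puc, the phosphatase gene through which JNK limits itself, rose by 0.99 (adjusted p = 0.0125) and Jra, the gene of fly Jun, by 1.17 (adjusted p = 0.0147). Both calls ended in the fit of 4 arrays, and that of Jra also without WT replicate 1, when the list had 2 rises and 1 fall. Without arm∆N replicate 2 it had 3 rises and 1 fall, and the fall of peb ended without arm∆N replicate 1, without WT replicate 2 and in the fit of 4 arrays. Of 20 wound and cuticle repair genes 6 rose and 1 fell (Duox, −0.63), the rises including Pvf1, a ligand gene of the PDGF and VEGF family (difference 0.81, adjusted p = 0.015). That list had 2 rises without WT replicate 1, 3 without arm∆N replicate 1, 3 with 1 fall without arm∆N replicate 2, 5 without WT replicate 2 and none in the fit of 4 arrays.

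Calls among genes of growth and cell death went both ways. Of all genes tested 19.8% were called, 8.04% higher and 11.8% lower, and the share called among the apoptosis genes was smaller. Of 17 Hippo and growth genes 4 rose and 3 fell (median −0.10), against 2 and 2 without WT replicate 1, and of 19 apoptosis genes 2 rose and 1 fell (median −0.11), against 1 rise without arm∆N replicate 1 and 1 without WT replicate 2. Thor, the fly 4E-BP that holds back translation, had 11.61 and 11.78 in arm∆N against 9.50 and 10.27 in WT (difference 1.81, adjusted p = 0.0111). InR, the insulin receptor gene, rose by 1.24 and ImpL2, which binds insulin-like peptides, by 1.03. The calls of all 3 ended in the fit of 4 arrays and that of InR without WT replicate 1. Damm, a caspase gene, had 6.26 and 6.35 in arm∆N against 3.94 and 3.14 in WT (difference 2.76, adjusted p = 0.000353). Of 11 GstD glutathione S-transferases 4 rose and none fell, against 2 rises without WT replicate 2. GstD1 rose by 1.24 (adjusted p = 0.0225). Of 64 cytochrome P450 genes 8 rose and 10 fell, not far from the shares of all genes. Cyp6a14 rose by 2.95 and Cyp6a9 by 1.81, while Cyp28d2 had 3.11 and 3.44 in arm∆N against 7.86 and 7.89 in WT (difference −4.60, adjusted p = 6.16e-05). The P450 list had 4 rises and 7 falls without arm∆N replicate 1, 5 and 5 without arm∆N replicate 2, 7 and 6 without WT replicate 1, and 4 and 9 without WT replicate 2.

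Cuticle genes did not shift as a family. Of 59 genes of cuticle proteins with an RR (Rebers-Riddiford) domain 8 rose and 8 fell, with a median difference of 0.01. The rises reached 5.47 for Cpr47Eb, with 11.03 and 10.35 in arm∆N against 5.80 and 4.64 in WT (adjusted p = 0.000903). The falls reached −3.21 for Cpr67Fb, with 2.47 and 2.54 in arm∆N, near the lowest value, against 6.05 and 5.37 in WT (adjusted p = 0.00292). Cpr49Af fell by 3.15. Edg91, also one of the 8 rises, had 11.16 and 11.35 in arm∆N against 7.33 and 7.06 in WT (adjusted p = 0.000822). Outside the domain family TwdlO, a Tweedle cuticle gene, had 7.38 and 7.32 in arm∆N against 3.21 and 3.24 in WT (adjusted p = 0.000414). The RR list gave 3 rises and 2 falls without arm∆N replicate 1, 5 and 5 without arm∆N replicate 2, 5 and 3 without WT replicate 1, and 7 and 3 without WT replicate 2. Among 21 denticle and apical matrix genes 4 fell and 1 rose (median −0.41). The falls included the zona pellucida genes m (miniature, −2.13), neo (−2.22) and nyo (−1.22), whose products shape the apical surface of the denticle cells, and the rise was that of y, the gene of the melanin-pathway protein Yellow, with 7.70 and 8.29 in arm∆N against 5.63 and 5.93 in WT (difference 2.21, adjusted p = 0.0105). The calls of neo and nyo ended in the fit of 4 arrays.

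Of 30 neuron function genes 6 rose and 2 fell (median 0.55), where 8.04% of all genes tested rose and 11.8% fell. Outside this list, the gut and brain hormone gene Tk had 5.88 and 6.28 in arm∆N against 3.25 and 3.22 in WT (difference 2.85 ± 0.28, SE, adjusted p = 0.000296). Within the neuron list Gad1, the GABA-synthesising enzyme gene, rose by 1.90 (adjusted p = 0.0192) and VAChT, which loads acetylcholine into vesicles, by 1.80 (adjusted p = 0.00619). The list had 2 rises and no fall without WT replicate 1, the same without arm∆N replicate 1, and 3 rises in the fit of 4 arrays. The 26 neuroblast and proneural genes had 4 falls and no rise (median −0.51), a share of calls below the 19.8% of all genes. Among the falls was pros, which ends neuroblast self-renewal (−1.48, adjusted p = 0.0109), whose call ended in the fit of 4 arrays. That list had 1 fall without arm∆N replicate 1, 2 without arm∆N replicate 2 and 2 without WT replicate 2.

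Of the 15 genes with the largest falls 6 were in the lists of digestive enzymes. Jon25Biii, a serine protease gene of the Jonah family, had 2.65 and 2.60 in arm∆N, near the lowest value, against 9.62 and 8.71 in WT (difference −6.53 ± 0.52, SE, adjusted p = 6.16e-05). Acbp5, of the acyl-CoA binding proteins and outside these lists, had 4.15 and 4.09 in arm∆N against 9.86 and 8.25 in WT (difference −4.93, adjusted p = 0.000353). The maltase gene Mal-A3 had 3.73 and 3.72 in arm∆N against 8.80 and 7.70 in WT (adjusted p = 0.00012), and the lysosomal mannosidase gene LManV had 3.81 and 4.19 in arm∆N against 8.53 and 7.79 in WT (adjusted p = 0.000353). The arm∆N arrays lay more than 3 log2 units below the lower WT array in each of these 4 genes. Vha100-4, a subunit gene of the proton pump, fell by 3.90, the protease gene lambdaTry by 3.57 and the ammonium transporter gene Rh50 by 3.48, all with arm∆N near the lowest value. Irk2, a potassium channel gene of the oenocyte, Malpighian tubule and nephrocyte list, fell by 3.37. Of 16 maltases, amylases and lysosomal mannosidases 8 fell and 1 rose, with a median of −0.98. The rise was that of tobi, by 0.98 from a WT level near the lowest value, and its call ended in the fit of 4 arrays. Of the falls, 5 were left without WT replicate 1, 5 without arm∆N replicate 2 and 6 without arm∆N replicate 1.

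Not every gut gene was lower. Among 11 Jonah proteases 4 fell and 1 rose. The rise, of Jon65Aiii (10.12 and 10.09 in arm∆N against 9.01 and 8.46 in WT, adjusted p = 0.091), ended without each of the 4 arrays and in their fit alone, and the list had 3 falls without each of arm∆N replicate 1, arm∆N replicate 2 and WT replicate 1 and 5 without WT replicate 2. Of 12 trypsins 2 fell, against 1 without WT replicate 1 and 4 without WT replicate 2. Of 26 other midgut genes 5 rose and 6 fell, against 4 falls without arm∆N replicate 1 and 3 without WT replicate 1. lab, the Hox gene that specifies the copper cells of the midgut, had 3.81 and 3.80 in arm∆N against 5.55 and 5.59 in WT (difference −1.77, adjusted p = 0.000511). In embryos analysed whole, fewer cells of a type and less RNA per cell cannot be told apart.

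A broad and shallow fall took in genes for the mitochondrial ribosome. Of 69 mitochondrial ribosomal protein genes 45 fell and 1 rose, 64 of the 69 differences were negative, and the median difference was −0.77. The rise was that of mRpS5 (1.27, adjusted p = 0.0515), named after its value was seen, and it ended without arm∆N replicate 1, without WT replicate 1 and in the fit of 4 arrays. The mean level of the list was 7.30 and 6.91 in arm∆N against 7.89 and 7.70 in WT. mRpL3 had 5.62 and 5.30 in arm∆N against 6.68 and 6.47 in WT (difference −1.12, adjusted p = 0.00312), and mRpL15 (−1.16), mRpL44 (−1.02), mRpL51 (−0.98) and mRpL14 (−0.95) fell by similar amounts. The arrays of the 2 genotypes did not overlap in any of these 5 genes, but the calls of all 5 ended in the fit of 4 arrays, in which the list had 2 falls. It had 26 falls without WT replicate 1, 23 without arm∆N replicate 2, 51 without arm∆N replicate 1 and 32 after loess. The 39 cytosolic ribosomal protein genes tested had list means of 10.99 and 10.72 in arm∆N against 10.96 and 10.84 in WT.

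Lists of other machinery genes were added after the values were seen. Of 15 subunit genes of RNA polymerases I and III, which make ribosomal and transfer RNA, 10 fell and none rose (median −0.99), with list means of 5.52 and 5.39 in arm∆N against 6.51 and 6.14 in WT. Of 10 subunit genes of the RNA exosome, which trims and degrades RNA, 7 fell (median −0.95), with list means of 5.45 and 5.25 in arm∆N against 6.33 and 6.08 in WT. The synthetases that charge transfer RNA had 7 falls of 14 mitochondrial and 7 of 19 cytosolic genes. Falls also numbered 3 of 9 among RNA polymerase II subunits, 6 of 22 in Mediator, 4 of 20 in the nuclear pore and 3 of 8 in the chaperonin CCT, and the share called was below the 19.8% of all genes for the proteasome (1 of 28) and the respiratory chain (2 of 54, against 6 without WT replicate 2). No list of this paragraph had more than 1 fall in the fit of 4 arrays. Without WT replicate 1 falls numbered 4 for the exosome, 3 for the mitochondrial synthetases, 1 for RNA polymerase II, 1 for Mediator and 0 for the nuclear pore. Without arm∆N replicate 2 they numbered 4 for the exosome, 2 for the mitochondrial synthetases, 2 for Mediator, 2 for the nuclear pore and 1 for CCT. Without arm∆N replicate 1 there were 2 for the nuclear pore.

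**Figure D3:**
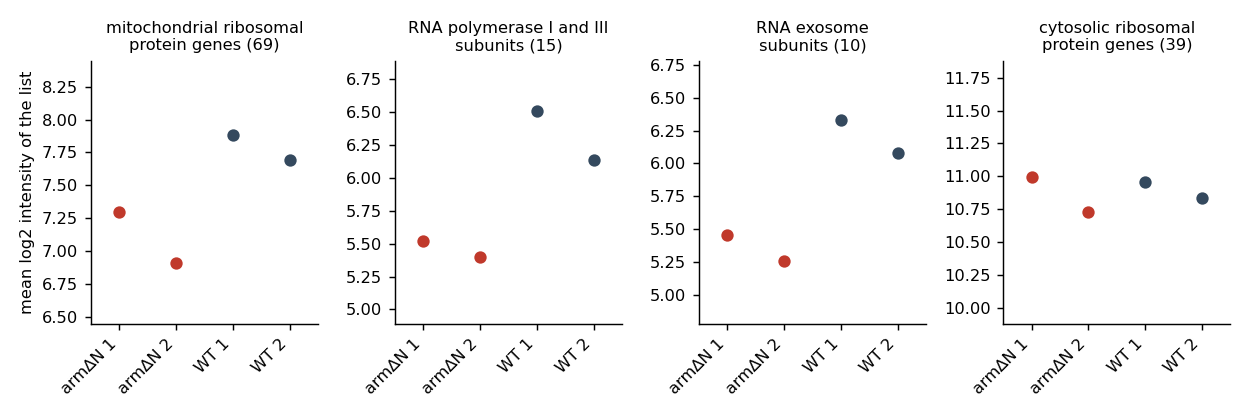
Mean level (y axis, log2 intensity) of 4 gene lists on each array of arm∆N and WT, 1 point per array, each panel with its own range of the same span. The 2 arm∆N points lie below both WT points for the mitochondrial ribosomal, RNA polymerase I and III and exosome lists, and the cytosolic ribosomal list overlaps between the genotypes.

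Several groups of patterning genes fell in arm∆N and few of their members rose. Of 10 planar polarity genes 6 fell (median −0.76), against 2 in the fit of 4 arrays. fj, a kinase gene of the Fat and Dachsous system, had 5.63 and 5.45 in arm∆N against 7.18 and 7.07 in WT (difference −1.59, adjusted p = 0.00317), and ft, the gene of the giant cadherin Fat, had 8.06 and 8.15 in arm∆N against 9.49 and 9.30 in WT (difference −1.29, adjusted p = 0.00451). The list had 3 falls without WT replicate 1, 3 without arm∆N replicate 1, 4 without WT replicate 2 and 3 after loess. Of 15 gap and terminal genes 6 fell (median −0.42), against 1 in the fit of 4 arrays. knrl, a nuclear receptor gene paired with kni, had 4.85 and 4.95 in arm∆N against 6.41 and 6.36 in WT (difference −1.49, adjusted p = 0.00107), and kni fell by 1.37, a call that ended in the fit of 4 arrays. Without arm∆N replicate 1 that list had 2 falls. Segment polarity and pair-rule genes had 2 rises and 1 fall of 20, a share of calls below that of all genes, and 1 rise without arm∆N replicate 1.

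Organ-fate genes gave a like picture. Of 23 tracheal development genes 9 fell and 1 rose (median −0.61), among them trh, the selector gene of the trachea (−1.69, adjusted p = 0.00785), stumps, an adaptor of FGF signalling (−1.16, adjusted p = 0.00684), and rib (−0.89, adjusted p = 0.0175). The list had 6 falls without WT replicate 1, 6 without arm∆N replicate 1, and 4 rises and 8 falls without WT replicate 2. Of 18 salivary gland genes 7 fell, including sage, a gland-specific transcription factor gene (−0.95, adjusted p = 0.0111), against 4 without WT replicate 1, 3 without arm∆N replicate 1 and 4 without arm∆N replicate 2. Of 22 Notch pathway genes 5 fell, against 1 or 2 without any 1 array. The oenocyte, Malpighian tubule and nephrocyte list had 6 falls and 1 rise of 18, against 3 falls without arm∆N replicate 1 and 4 without WT replicate 1. The calls of trh, rib and sage ended in the fit of 4 arrays. In that fit falls numbered 2 for the tracheal list and 1 each for the salivary gland, Notch and oenocyte lists.

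**Figure D4:**
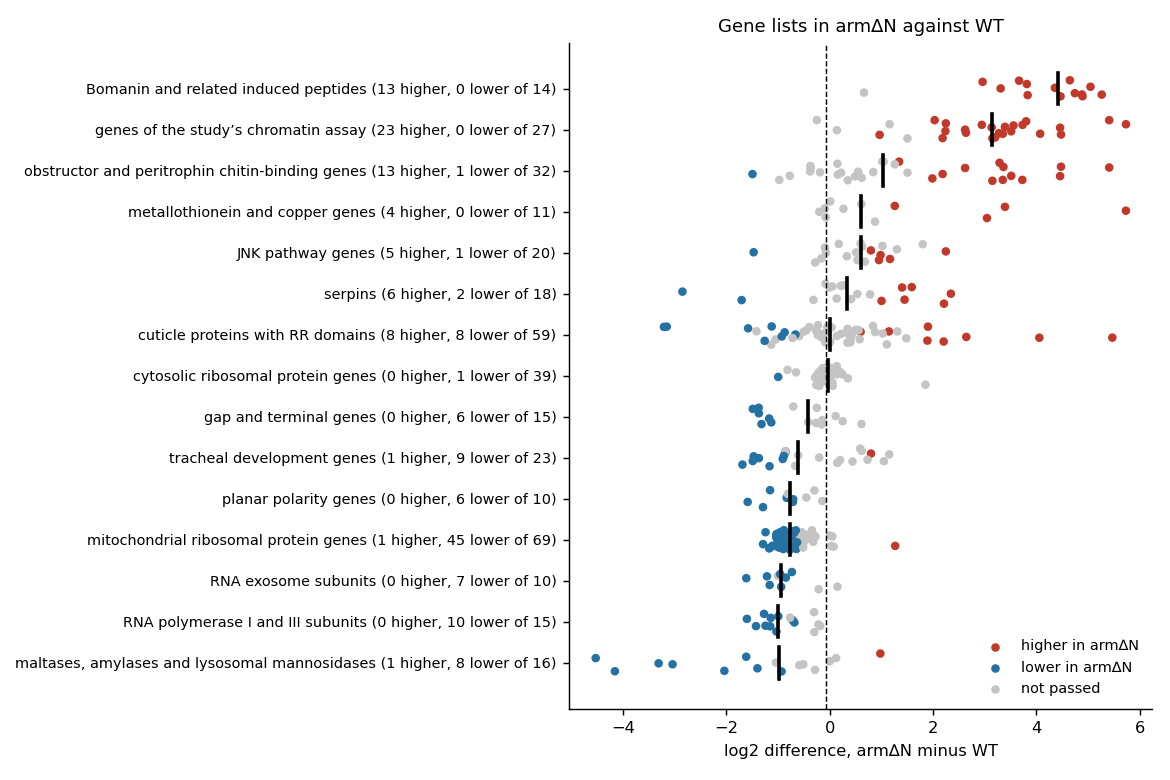
Difference between arm∆N and WT (x axis, log2) for the members of 15 gene lists, 1 point per gene tested, coloured by call, with a bar at the median of each list and a dashed line at the median of all genes (−0.079). The Bomanin median stands farthest to the right (4.41), and the mitochondrial ribosomal list spreads narrowly around −0.77.

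Markers of cell types and stages were read for their place beside these differences. Of 18 hemocyte markers 4 fell and 1 rose. The falls were Pxn, the basement membrane peroxidase gene, with 4.23 and 4.48 in arm∆N against 6.35 and 6.19 in WT (difference −1.91, adjusted p = 0.00156), gcm, the blood and glia fate gene (−1.62, adjusted p = 0.00219), and the prophenoloxidase genes PPO1 (−1.82) and PPO2 (−1.74). The calls of PPO1 and PPO2 ended without arm∆N replicate 2, without WT replicate 2 and in the fit of 4 arrays, and that of PPO2 also without arm∆N replicate 1. Of 9 markers of the fat body, a tissue that makes immune peptides, 1 rose (Desat1, 1.31) and 1 fell (Mtp, −0.77, a call that ended without arm∆N replicate 2, without each WT array and in the fit of 4 arrays). Of 24 muscle contractile genes 1 rose (Tm1, 2.05), and the list had 4 rises without WT replicate 2. The call of Tm1 ended without each other array and in the fit of 4 arrays, and 2 other genes of the list rose without arm∆N replicate 2. Septate junction genes had 5 rises of 25, against 0 without WT replicate 1, 0 without arm∆N replicate 2, 2 rises and 2 falls without arm∆N replicate 1, and 8 rises and 1 fall without WT replicate 2. The part of cell numbers in any of the differences was not tested.

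For stage, none of 20 cellularization and early zygotic genes and none of 3 egg shell and yolk genes tested passed in limma, and 1 and 0 of them had an unadjusted p under 0.05. In the early zygotic list 19 of the 20 differences were negative, with list means of 5.42 and 5.47 in arm∆N against 5.90 and 6.41 in WT. The median of the early zygotic list was −0.74, and 1 of its genes was lower without arm∆N replicate 2 and 1 without WT replicate 1. Of 24 maternal and germ plasm genes 1 rose, bcd itself, with 5.31 and 5.99 in arm∆N against 2.71 and 4.68 in WT (adjusted p = 0.0997), a call that ended without each of arm∆N replicate 1, arm∆N replicate 2 and WT replicate 1 and in the fit of 4 arrays. Of 47 mitosis and DNA replication genes 1 rose and 3 fell, against none without WT replicate 1. A difference in the mean age of the embryos within the collection window was not tested.

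The arm∆N arrays were next set against those of arm∆N-tcf∆N-short and of Wg++. The shortened TCF lacks the Groucho-binding region and the C-clamp as well as the Arm-binding region, and the effects of these losses cannot be told apart here. Both comparisons share the arm∆N arrays with the comparison against WT, and their values are given side by side. Between arm∆N and arm∆N-tcf∆N-short 492 genes were higher and 574 lower in arm∆N (11.8% of genes tested, 5.45% higher and 6.36% lower). Without arm∆N replicate 1 this count of 1066 was 547 and without arm∆N-tcf∆N-short replicate 1 it was 694, and the fit of the 4 arrays gave 287. Between arm∆N and Wg++ 1681 genes were higher and 1715 lower in arm∆N (37.6% of genes tested, 18.6% higher and 19% lower), with 1772 calls in all without Wg++ replicate 1.

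Against arm∆N-tcf∆N-short 17 of the 32 chitin-binding genes were higher in arm∆N and 1 lower. Of the 27 genes on the chromatin immunoprecipitation list 24 were higher. The study chose genes for that assay by their levels in these samples, with low levels under the same TCF form alone (tcf∆N-short). The count of 24 is thus not independent evidence of a direction, and 9 of the 27 genes are also in the chitin-binding list. Mco4 was at 2.29 and 2.29 in arm∆N-tcf∆N-short, the lowest value of the arrays, and at 8.15 and 8.01 in Wg++. obst-H was at 2.33 and 2.29 in arm∆N-tcf∆N-short and at 6.54 and 6.50 in Wg++, so that its level in arm∆N was above both. CG10725 was at 3.38 and 4.30 in arm∆N-tcf∆N-short and at 11.60 and 11.28 in Wg++. It was 8.58 higher in arm∆N than in arm∆N-tcf∆N-short, while its difference from Wg++ of 0.98 did not pass. Of 11 Wg target and feedback genes 3 were higher in arm∆N than in arm∆N-tcf∆N-short and none lower, and 5 were higher and 1 lower against Wg++. This list holds wg itself, the transgene of Wg++, at 6.61 and 6.50 in arm∆N and at 10.15 and 10.04 in Wg++. The lower level of wg in arm∆N was set by the genotypes. Notum was at 3.57 and 3.12 in arm∆N-tcf∆N-short and at 4.60 and 4.72 in Wg++ (differences 3.32 and 2.00). fz3 was at 5.17 and 5.10 in arm∆N-tcf∆N-short and at 5.97 and 6.55 in Wg++ (differences 2.53 and 1.41).

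For the immune peptides the test did not separate arm∆N from arm∆N-tcf∆N-short. None of the 14 Bomanin genes was called between them by limma, 2 had an unadjusted p under 0.05, and 3 were called without arm∆N-tcf∆N-short replicate 2. Against Wg++ 7 of the 14 were higher in arm∆N, but only 1 without arm∆N replicate 1, 1 without arm∆N replicate 2, 3 without Wg++ replicate 1 and 1 without Wg++ replicate 2. BomBc3 was at 6.83 and 9.05 in arm∆N-tcf∆N-short and at 7.64 and 6.97 in Wg++, and its difference between arm∆N and arm∆N-tcf∆N-short was 1.63 ± 0.81 (SE, adjusted p = 0.272). The 2 arm∆N-tcf∆N-short arrays were 2 log2 units apart for this gene, and a test that misses the threshold does not show that the levels were alike. Drs was at 8.12 and 9.50 in arm∆N-tcf∆N-short and at 9.47 and 8.82 in Wg++, below both arm∆N arrays in each case, and neither difference passed. SPE was at 7.05 and 7.42 in arm∆N-tcf∆N-short and at 5.39 and 5.97 in Wg++, and only its difference from Wg++ (2.51) was called.

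Several of the genes that were lower in arm∆N than in WT were high in arm∆N-tcf∆N-short. Jon25Biii was at 10.88 and 9.66 in arm∆N-tcf∆N-short and at 2.57 and 2.58 in Wg++, close to its level in arm∆N. Mal-A1 was at 2.35 and 2.54 in arm∆N, at 9.39 and 9.62 in arm∆N-tcf∆N-short, at 2.71 and 2.29 in Wg++, and at 6.19 and 5.32 in WT. Acbp5 was at 11.02 and 10.93 in arm∆N-tcf∆N-short and at 2.84 and 2.87 in Wg++, and its difference between arm∆N and Wg++ (1.27) lost its call without any 1 of their 4 arrays. Of the 16 maltases, amylases and mannosidases 13 were lower in arm∆N than in arm∆N-tcf∆N-short, against 8 relative to WT. Other gut lists were mixed in this comparison, with 2 of 11 Jonah proteases higher in arm∆N and 6 lower, 1 of 12 trypsins higher and 4 lower, and 6 of 26 other midgut genes higher and 8 lower. The higher trypsin gene, Try29F, lost its call without any 1 of the 4 arrays, and the midgut list had 4 higher and 5 lower without arm∆N replicate 1. Of the 69 mitochondrial ribosomal protein genes 7 were lower in arm∆N than in arm∆N-tcf∆N-short and none was higher, against 11 without arm∆N replicate 1, 1 without arm∆N replicate 2 and 1 without arm∆N-tcf∆N-short replicate 2.

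**Figure D5:**
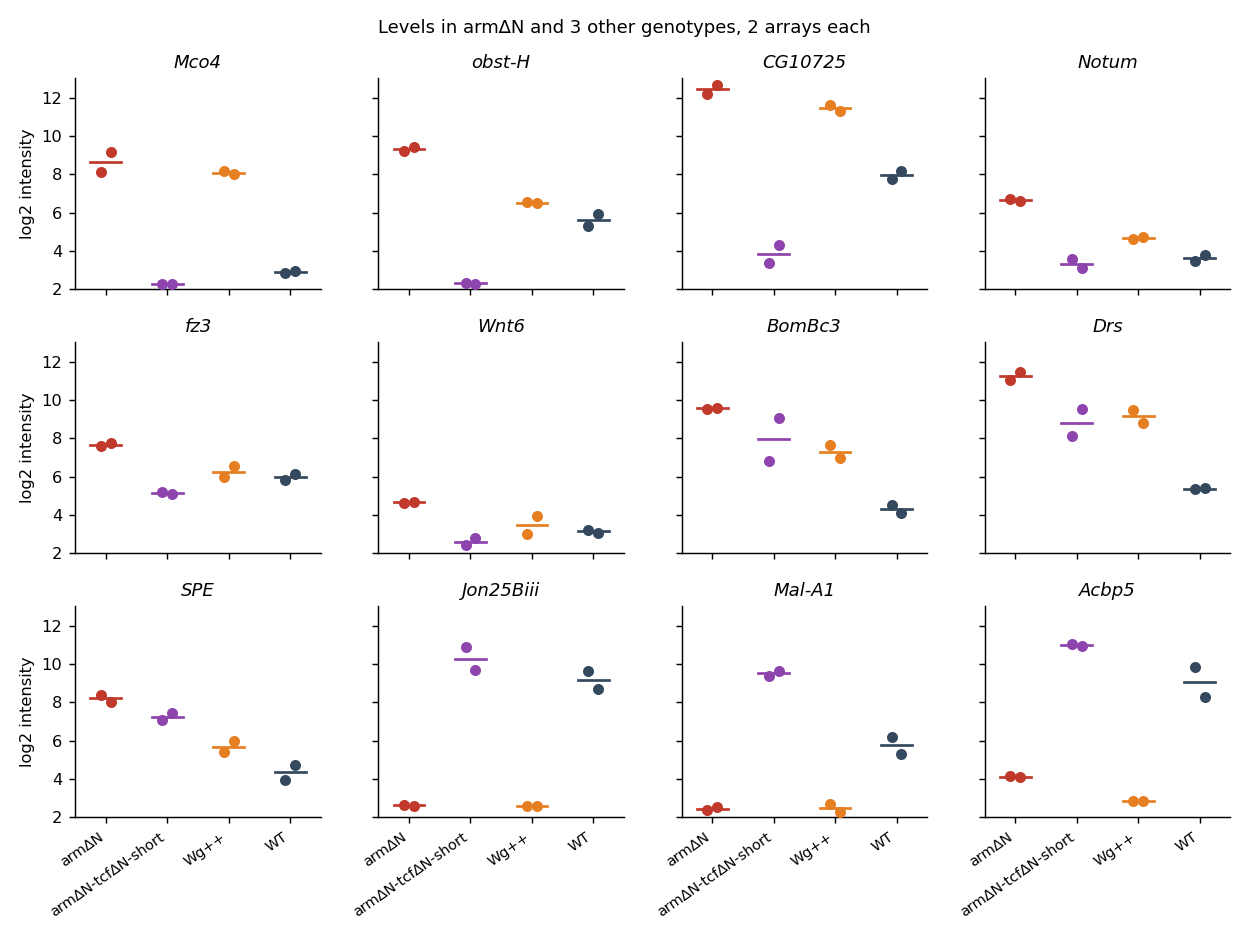
Level (y axis, log2 intensity) of 12 genes in arm∆N, arm∆N-tcf∆N-short, Wg++ and WT embryos, 1 panel per gene, 1 point per array and a line at the mean. Mco4 and CG10725 are high in arm∆N and Wg++ and low in arm∆N-tcf∆N-short, and obst-H is highest in arm∆N and lowest in arm∆N-tcf∆N-short. BomBc3, Drs and SPE are lowest in WT, and Jon25Biii, Mal-A1 and Acbp5 are highest in arm∆N-tcf∆N-short.

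Outside the genes tested, 99 of 1075 probesets that map to no gene or to several were called (9.21%), 45 higher in arm∆N (4.19%) and 54 lower (5.02%). Called genes were spread over the chromosomes, with 19.8% of the tested genes on 2L, 21.1% on 2R, 19.8% on 3L, 20.5% on 3R, 17.7% on X and 6.15% on the small chromosome 4 (4 of 65 genes). By the gene order of the Release 6 plus ISO1 MT annotation, 10 runs of at least 4 neighbouring tested genes were called in 1 direction, 6 higher and 4 lower, with 47 genes in all. The longest was a block of 9 Bomanin genes on 2R. A second run on 2R joined Listericin, an antibacterial peptide gene, to the cuticle genes Cpr47Ea and Cpr47Eb and 3 genes without a name (CG13215, CG13226 and CG34227), and the call of CG13226 ended without arm∆N replicate 2 and in the fit of 4 arrays. Runs of 4 were formed on 3R by GstD9, GstD1, GstD2 and GstD3, on 2L by Vajk2, Vajk3, NimB1 and NimB2, and on 2R by CG30047, CG30043, CG33012 and CG13160, the last of which had 7.23 and 7.56 in arm∆N against 3.67 and 4.01 in WT. Neighbouring copies of a gene family can share probe sequence, so that members of such a run may not be independent measurements. Of these, the calls of GstD9, GstD2, Vajk2, Vajk3, NimB1 and NimB2 ended without at least 1 array and those of GstD3, GstD9, Vajk2, Vajk3 and CG33012 in the fit of 4 arrays, and Vajk2 was higher by 0.54, not called, by its probeset with the highest mean. The lower runs were each of 4 genes, and 2 of them held a mitochondrial ribosomal protein gene (mRpL42 on 2R and mRpS14 on X), whose calls ended without WT replicate 1, in the fit of 4 arrays and, for mRpL42, also without arm∆N replicate 2.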

How the data were processed

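The values were the deposited log2 intensities of the series matrix, which the authors had normalised with GC-RMA from Affymetrix Drosophila 2 arrays. They hold no read depth, and their precision is limited by 2 arrays per genotype. Of 18952 probesets, 13646 named 1 gene, 402 several and 4545 none, and 183 were controls. The platform annotation was updated through the Release 6 plus ISO1 MT gene table, and the study's own table named 176 probesets. One probeset stood for each gene, and a gene was tested if 2 arrays or more exceeded 2.5. For the 1082 genes with several probesets it was the one with the largest interquartile range over the 16 arrays. That choice favours probesets that vary between these arrays. Differences were fitted with limma 3.58.1 in R 4.3.3, with 1 coefficient for each of 8 genotypes over 16 arrays. Calls required a fold change above 1.5 and a false discovery rate under 10% (Benjamini-Hochberg). The fitting steps were tested on simulated data. Gene lists are described by counts and medians, with no set test.

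Genes were named by rule. They are the 15 largest rises and 15 largest falls, from each list the called members with the lowest adjusted p (up to 5), genes named by the study, and called members of runs of neighbours. CG17145, Desat1, Duox, mRpS5, Spn43Aa and w, and the members of the 10 added machinery lists, were named after their values were seen where the rule did not reach them. The comparison and the lists were chosen with earlier results of these data known. Alternatives were a false discovery rate of 5%, a filter at 4 or none, choosing among probesets of a gene by mean level, a trended prior, cyclic loess, the replicate number as a block, only the arrays of the 2 genotypes, and each array left out. A mapping by the platform annotation alone was added after seeing the data.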

Additional observations from a re-analysis of the deposited data

Results flagged for a closer look

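Probesets outside the comparison carried signal as well. Of 1075 probesets that map to no gene or to several genes and lay above 2.5 in at least 2 arrays, 99 were called between arm∆N and WT by the same limma fit and thresholds (9.21%), 45 higher in arm∆N (4.19%) and 54 lower (5.02%). They were singled out because they lie outside the genes the comparison covers. Their genes are not named here.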

How the results depend on the processing

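Counts between arm∆N and WT stayed within 1.5 times 1788 in 8 alternatives, from 1200 at a false discovery rate of 5% to 2291 with the replicate number as a block, and at 1928 without WT replicate 2. Only the arrays of the 2 genotypes gave 336, and leaving out 1 array gave 926 to 1928. Between arm∆N and arm∆N-tcf∆N-short the main count was 1066, the arrays of the 2 genotypes alone gave 287 and leaving out 1 array gave 547 to 888. Between arm∆N and Wg++ the main count was 3396 and leaving out 1 array gave 1772 to 2673. The 99 probesets of no or several genes became 51 at a false discovery rate of 5%, 31 without a filter, 166 with the replicate block and 11 with the arrays of the 2 genotypes, and leaving out 1 array gave 37 to 161. The cause of these changes was not tested, except that the fits on 4 arrays leave 2 residual degrees of freedom against 8. Cyclic loess turned the majority of calls from falls to rises (824 higher and 681 lower).

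Of 252 named and called genes, 226 kept their call after loess, 221 without a filter, 111 with only the arrays of the 2 genotypes, 173 without arm∆N replicate 1, 184 without arm∆N replicate 2, 173 without WT replicate 1 and 212 without WT replicate 2, and no direction turned. The labels do not say that a replicate number is a shared day or batch, and same-numbered arrays deviated together, with a correlation over 0.1, in 20 of 28 pairs of genotypes (correlations of −0.526 to 0.674), so not every pair was over 0.1 and the number was not taken to pair the samples. The value was 0.198 for arm∆N with WT, 0.447 with arm∆N-tcf∆N-short and 0.4 with Wg++. With the number as a replicate block the calls were 2291 against WT, 1509 against arm∆N-tcf∆N-short and 4052 against Wg++, no named gene lost its call against WT, and 3 Bomanin genes, in place of 0, were called against arm∆N-tcf∆N-short.

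Intensities near the lowest value of the arrays (2.289) limit the size of differences, and 2 arrays per genotype limit what a single gene can show.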
